A study of Mus musculus with 6 samples.

Results

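The genes described here are 8 neighbours of Kansl1 on mouse chromosome 11, in and around the stretch that corresponds to the human 17q21.31 region of Koolen-de Vries syndrome (KdVS): Arhgap27, Plekhm1, Wnt3, Nsf, Arf2, Crhr1, Mapt and Cdc27. They were taken by gene symbol from a table of 26898 genes. Of the 8, 7 had a row, and 5 (Arhgap27, Plekhm1, Nsf, Arf2 and Cdc27) were expressed highly enough to be tested. Crhr1 had no row and was not analysed here. The question was whether deletion of Kansl1 is accompanied by changed expression of the genes beside it.

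RNA was sequenced from primary mouse embryonic fibroblasts (MEFs) of the C57BL/6 strain at passage 3. MEFs are fibroblasts grown out of embryonic tissue without immortalisation. WT cells carried Kansl1 with recombination sites on both alleles (Kansl1fl/fl), and KO cells carried the same alleles plus a Cre recombinase (Kansl1fl/fl/CAG-cre), which tamoxifen activates and which is driven by the broadly active CAG promoter. All 6 samples, WT 4, 5 and 8 and KO 3, 7 and 10, had received 1 μM tamoxifen for 48 h. The study states that each group came from 3 mice. Since no Cre-positive cells with intact Kansl1 were analysed here, loss of Kansl1 and presence of Cre cannot be told apart.

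KANSL1 is a scaffold subunit of the NSL complex, a chromatin regulator that acts at promoters. In people, KdVS follows either a deletion that removes KANSL1 together with nearby genes such as MAPT and CRHR1 or a variant in KANSL1 alone. The other genes described here lie further out and are not part of the common deletion. The neighbours have no common function. PLEKHM1 links late endosomes and autophagosomes to the machinery that fuses them with lysosomes, NSF takes apart used SNARE complexes, and ARF2 is a small GTPase of the secretory pathway. CDC27 is a subunit of the anaphase-promoting complex (APC/C), the ubiquitin ligase that drives exit from mitosis. MAPT (tau) binds microtubules, mainly in neurons, CRHR1 is the receptor of corticotropin-releasing hormone, and WNT3 is a secreted signal of early development.

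Of the 5 tested neighbours, 1 fell, where 10.7% of all tested genes changed. Plekhm1 dropped to 55.5% of its WT level. Arf2 and Arhgap27 were lower in every KO sample than in any WT sample, as were 29.9% of all tested genes, but missed the thresholds. Arhgap27 entered the test only through its WT level, and Nsf and Cdc27 overlapped between groups. Mapt and Wnt3 were close to silent in these fibroblasts. Among all 12 tested genes within 1 Mb of Kansl1, Plekhm1 was the only one called, and it lies near the far edge of that window.

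The 8 genes span 1219.1 kb of the mm10 build. In order of rising coordinates they are Arhgap27 (chromosome 11, 103331497 to 103363692, minus strand), Plekhm1 (103364275 to 103412687, minus), Wnt3 (103774150 to 103817957, plus), Nsf (103821782 to 103954056, minus), Arf2 (103966739 to 103985337, plus), Crhr1 (104132855 to 104175523, plus) and Mapt (104231390 to 104332090, plus). Kansl1 follows (104333229 to 104468861, minus), and Cdc27 (104502745 to 104550620, minus) is the only one of the 8 on its other side. Mapt and Kansl1 point at each other, and their 3′ ends are 1.1 kb apart. The start of Kansl1 faces the end of Cdc27 across 33.9 kb. Arhgap27 and Plekhm1 are transcribed in the same direction with 582 bp between them, and the start of Cdc27 lies 42 bp from that of Myl4 on the opposite strand.

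The promoters of 3 neighbours are shown for reference: Plekhm1, the gene that fell, Arhgap27, the gene next to it, and Cdc27, the nearest expressed gene to Kansl1. Whether promoter sequence bears on the expression results was not tested. Each run holds 250 bases before and 50 bases after a start annotated by RefSeq on GRCm38.p6, 5′ to 3′ on the strand of the gene. Capitals mark matches on either strand to the GC box GGGCGG and the CCAAT box CCAAT.
Plekhm1, chr11:103412656-103412955, minus: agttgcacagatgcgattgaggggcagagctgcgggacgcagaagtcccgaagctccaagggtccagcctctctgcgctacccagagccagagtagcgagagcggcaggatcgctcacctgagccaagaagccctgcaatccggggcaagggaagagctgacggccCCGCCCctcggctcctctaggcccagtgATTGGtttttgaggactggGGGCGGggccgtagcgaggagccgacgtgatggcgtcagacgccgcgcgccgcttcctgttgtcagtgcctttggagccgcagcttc
Arhgap27, chr11:103363643-103363942, minus: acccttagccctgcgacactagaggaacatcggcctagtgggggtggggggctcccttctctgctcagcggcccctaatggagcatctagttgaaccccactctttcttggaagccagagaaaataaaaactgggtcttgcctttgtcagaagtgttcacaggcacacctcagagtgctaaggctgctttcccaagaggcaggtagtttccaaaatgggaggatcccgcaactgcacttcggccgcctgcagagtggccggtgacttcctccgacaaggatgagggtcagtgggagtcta
Cdc27, chr11:104550571-104550870, minus: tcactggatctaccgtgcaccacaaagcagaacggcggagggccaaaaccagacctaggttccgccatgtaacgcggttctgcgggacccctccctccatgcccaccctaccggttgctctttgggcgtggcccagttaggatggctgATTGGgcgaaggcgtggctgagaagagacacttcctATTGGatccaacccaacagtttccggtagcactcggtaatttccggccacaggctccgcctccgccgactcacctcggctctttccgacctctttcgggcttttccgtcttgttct

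The Plekhm1 window held 2 GC boxes and 1 CCAAT box. The Cdc27 window held 2 CCAAT boxes and no GC box, and the window at this start of Arhgap27 held neither. A second annotated start of Arhgap27 (chr11:103344653-103344952, minus), not printed, held 1 CCAAT box and 1 E-box CACGTG. Over all 32851 promoter windows of 300 bases, 35.7% held a GC box and 37.4% a CCAAT box. The E-box and the TATA box TATAAA, searched on both strands as well, were in none of the 3 windows shown and in 7.15% and 13.6% of all windows. Of the 8 genes, 7 had at least 1 window in the RefSeq table, and Mapt had no entry.

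Expression is given as TPM, a share of the library's transcripts in which reads are divided by gene length, so levels can be compared between genes. Whole reads behind each value were recovered from the TPM and the exon length, and amounted to 17654338 (KO 3) to 27716119 (KO 7) per sample over all genes. The 10 fibroblast markers were all tested, none was called changed, and they summed to 10277 to 14857 TPM in WT and 11006 to 14443 TPM in KO samples. The summed level of 8 macrophage markers was 13.3 to 14.7 TPM in WT and 17.8 to 32.6 TPM in KO samples. That of the 9 neuron markers with a row was 88.5 to 112 TPM in WT and 105 to 136 TPM in KO samples. Of these, 5 were under 1 TPM in every sample, as were 3 of the macrophage markers. The 5 skeletal muscle markers, 4 of them under 1 TPM in every sample, summed to 250 to 365 TPM in WT and 251 to 317 TPM in KO samples. Of the tested macrophage, neuron, skeletal muscle, epithelium and endothelium markers, 0 were called changed. Such sums alone do not show that these cells were present. The part of these other cell types in the results was not tested, and in cultured bulk samples fewer expressing cells and less RNA per cell cannot be told apart. KO 7 had 20412 Xist reads, where the other samples had 1 to 3, and 0 reads of the Y-linked Ddx3y, where the others had 1876 to 2695. KO 7 thus stood apart from the rest in its sex-linked genes. Without it, the log2 fold changes described below were -0.76 for Plekhm1, -0.54 for Arf2, -0.56 for Arhgap27, -0.30 for Cdc27 and -0.13 for Nsf, with the same calls.

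Kansl1 itself was examined first, as a check of the labels. It had 1590, 1608 and 1593 reads in WT 4, 5 and 8 and 686, 1050 and 885 reads in KO 3, 7 and 10. The WT mean was 26.6 ± 2.06 TPM and the KO mean 14.6 ± 1.04 TPM (SD, n = 3), a fall of log2 size -0.82 (SE 0.11, limma adjusted p = 0.000859). Every KO sample was below every WT sample. The values cover all exons, so transcript that lacks the deleted part may still be counted.

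A gene was called when its limma adjusted p-value was below 0.005 and its log2 fold change, on the log2(TPM + 1) scale, exceeded 0.5 in size. These are the cut-offs that the study set, there for DESeq2, a different model, so its calls need not be the same. Of 14799 tested genes, 1579 (10.7%) were called, 1337 lower (9.03%) and 242 higher (1.64%). Of the 5 tested neighbours, 1 was called lower and 0 higher. At an adjusted p-value under 0.05 with no fold threshold, Plekhm1 and Arf2 passed, against a background of 27.8% of tested genes. With the fold threshold kept at that p-value, Plekhm1 alone passed, against 21.3%. The log2 fold change was below 0 in all 5, as in 57.4% of tested genes, with a median of -0.49 against -0.07 over all tested genes. The KO samples lay wholly below the WT samples for 3 of the 5, and for 29.9% of tested genes. Arhgap27, among the 3, reached the 1 TPM filter only in WT and so had to be lower, and it is also counted in the 5 and in their median. Groups that did not overlap in either direction made up 43.2% of tested genes.

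**Figure D1:**
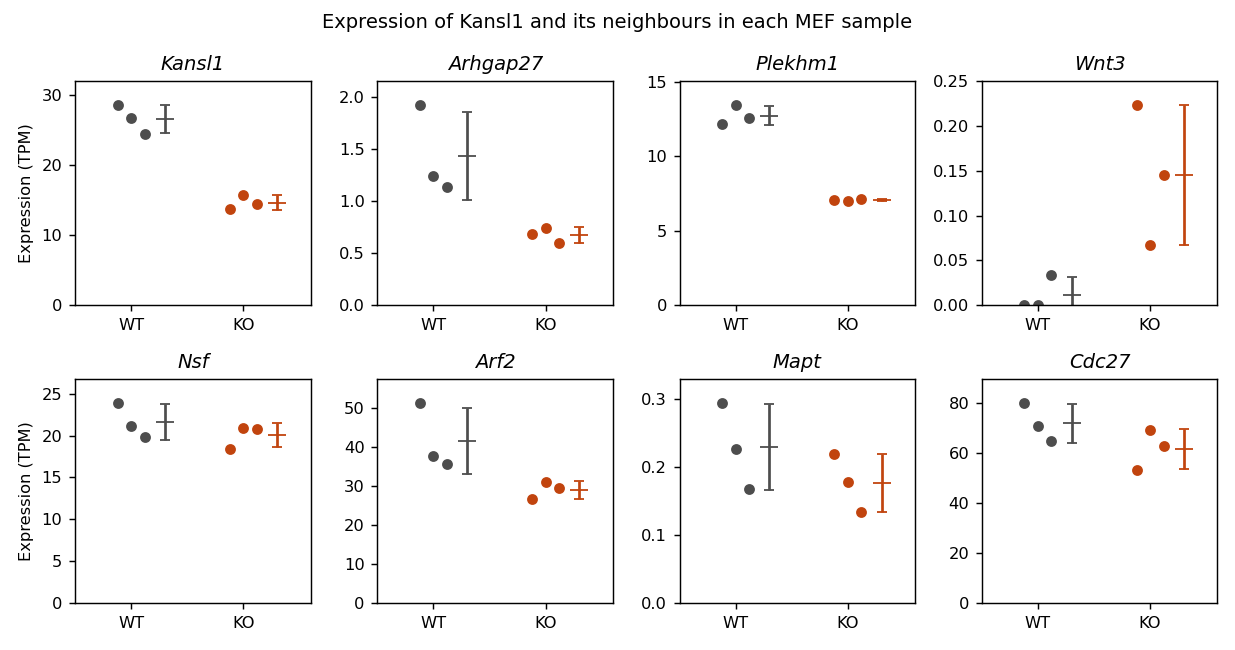
Expression in TPM (vertical axes, each from 0) of Kansl1 and 7 neighbours in the 3 WT (grey) and 3 KO (orange) samples; points are samples, and the dash with bars is the mean ± SD (cut at 0 for Wnt3). KO samples lie below all WT samples for Kansl1, Plekhm1, Arf2 and Arhgap27, the groups overlap for Nsf, Cdc27 and Mapt, and KO samples lie above for Wnt3, at 0.223 TPM or less.

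Plekhm1 (ENSMUSG00000034247.9) was the neighbour that fell. WT 4, 5 and 8 gave 12.2, 13.4 and 12.6 TPM, and KO 3, 7 and 10 gave 7.07, 7.02 and 7.11 TPM. The groups were far apart, and the 3 KO samples were nearly equal. The reads behind these values were 589, 703 and 712 in WT and 307, 406 and 379 in KO samples. Mean expression was 12.7 ± 0.640 TPM in WT and 7.07 ± 0.0460 TPM in KO samples (SD, n = 3). The log2 fold change was -0.77 (SE 0.11, 95% interval -1.01 to -0.52, limma adjusted p = 0.0011). The adjusted p-value was 0.0069 without WT 5 and 0.00543 without KO 10, which ends the call while the fold change stays at -0.73 and -0.77. Of the 50-base stretches in Plekhm1 transcripts, 5.05% also occur in other annotated genes, 287 of those 301 in Arhgap27os1, which overlaps its exons over 334 bp on the opposite strand.

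Arhgap27 (ENSMUSG00000034255.17), the next gene along, was a low-expressed gene. Its levels were 1.92, 1.24 and 1.13 TPM in the WT samples 4, 5 and 8, against 0.686, 0.740 and 0.594 TPM in the KO samples 3, 7 and 10. The groups did not overlap, but the highest WT value came from WT 4 alone. It rests on 69 to 100 reads per WT sample and 32 to 46 per KO sample. The KO mean was 46.9% of the WT mean, whereas the log2 fold change on the log2(TPM + 1) scale, which understates changes of low genes, was -0.53 (SE 0.21, 95% interval -0.99 to -0.07, limma adjusted p = 0.0852). This gene entered the test only through its WT mean. With voom, which models the reads, its log2 fold change was -1.03 (limma adjusted p = 0.00767), still short of the threshold, under which 17.5% of tested genes were called. Of its 50-base stretches, 20.7% also occur in other genes, all of them in Arhgap27os2 and Arhgap27os1 on the opposite strand, and whether the counting used strand is not given in the sources used here.

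Arf2 (ENSMUSG00000062421.13) gave 51.4, 37.6 and 35.7 TPM in the WT samples 4, 5 and 8, against 26.6, 31.0 and 29.4 TPM in the KO samples 3, 7 and 10. The groups did not overlap, and WT 4 was well above the other WT samples. The means were 41.6 ± 8.56 and 29.0 ± 2.24 TPM (SD, n = 3). The log2 fold change of -0.49 (SE 0.14, 95% interval -0.81 to -0.17, limma adjusted p = 0.0313) missed both thresholds. It was -0.33 without WT 4 and -0.59 without WT 8. The limma adjusted p rose to 0.0643 without WT 4, 0.0928 without KO 3, 0.0711 without KO 10, 0.0801 with every gene tested and 0.0547 with no variance trend, and was 0.00688 with voom and 0.00316 among genes averaging 10 TPM or more. No 50-base stretch of Arf2 occurs in another annotated gene, so its values are not mixed with those of other ARF genes at that length.

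Cdc27 (ENSMUSG00000020687.13), the nearest expressed gene to Kansl1, had the highest level of the neighbours. The WT samples 4, 5 and 8 had 80.0, 70.7 and 64.5 TPM, and the KO samples 3, 7 and 10 had 53.2, 69.1 and 62.6 TPM. KO 7 exceeded WT 8, so the groups overlapped. These values rest on 2416 to 4183 reads per sample. The log2 fold change was -0.22 (95% interval -0.50 to 0.06, limma adjusted p = 0.23). It was -0.12 without KO 3, -0.14 without WT 4, -0.11 under median-of-ratios scaling, -0.29 without WT 8 and -0.30 without KO 7. With voom it was -0.20 (limma adjusted p = 0.0288), still short of both thresholds. The interval does not include a rise of 0.5.

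Nsf (ENSMUSG00000034187.18) gave 23.9, 21.2 and 19.8 TPM in the WT samples 4, 5 and 8, against 18.4, 20.9 and 20.8 TPM in the KO samples 3, 7 and 10. The groups overlapped, with KO 7 and KO 10 between the WT samples and KO 3 below them. Its log2 fold change was -0.10 (95% interval -0.36 to 0.15, limma adjusted p = 0.531), so a change of 0.5 in either direction lies outside the interval. It was -0.03 without WT 4, -0.04 without KO 3 and -0.16 without WT 8.

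Mapt (ENSMUSG00000018411.17), whose 3′ end is closest to Kansl1, was barely expressed, with 0.295, 0.227 and 0.168 TPM in the WT samples 4, 5 and 8 against 0.219, 0.178 and 0.134 TPM in the KO samples 3, 7 and 10. The groups overlapped (exact permutation test, two-sided, p = 0.4, where 0.1 is the smallest that 3 samples against 3 allow). It rests on 45 reads in the WT and 34 reads in the KO samples together, a rate ratio of KO to WT of 0.771 with an exact 95% interval of 0.479 to 1.23 for counting error only. Rate ratios between those limits remain possible on these reads, before any variation between samples is added.

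Wnt3 (ENSMUSG00000000125.5) had 0, 0 and 1 reads in WT 4, 5 and 8 and 5, 2 and 4 reads in KO 3, 7 and 10. These correspond to at most 0.0343 TPM in WT and 0.0671 to 0.223 TPM in KO samples, so the gene stayed close to silent in both groups although the KO values were all higher (exact permutation test, two-sided, p = 0.1, the smallest this design allows). The rate ratio of KO to WT was 11.2, with an exact 95% interval of 1.63 to 483 for counting error only.

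In the WT samples the order of levels was Cdc27 (71.7 ± 7.78 TPM), Arf2, Nsf (21.6 ± 2.10 TPM), Plekhm1, Arhgap27 (1.43 ± 0.428 TPM), Mapt (0.230 ± 0.0635 TPM) and Wnt3 (0.0114 ± 0.0198 TPM), each a mean ± SD of 3. The order was the same in the KO samples, where Cdc27 was at 61.6 ± 8.01 TPM and Nsf at 20.04 ± 1.45 TPM. No 2 genes next to each other in this order overlapped in their sample values in WT, or in KO, except Mapt and Wnt3 in KO samples.

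To place the neighbours in their surroundings, every gene with any part within 1 Mb of either end of Kansl1 was compared. Of 26 such genes with a row, 12 were tested and 1, Plekhm1, was called (8.33%, against 10.7% of all tested genes and 12.31% of 1137 tested genes of chromosome 11). Within 0.5 Mb, 0 of 4 were called by limma, and 1 of them (Arf2) had an unadjusted p-value under 0.05, as had 39.4% of all tested genes. A list of genes drawn up for the wider region gave 1 lower gene, again Plekhm1, of 16 tested. The median log2 fold change within 1 Mb was -0.09, close to -0.07 over all tested genes. Arhgap27, which had to be lower, is counted in the 12, in the 16 and in this median.

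Of the tested genes within 1 Mb that are not among the 8, 0 of 7 were called by limma. Of these 7, 2 (Mettl2 and Mrc2) had an unadjusted p-value under 0.05, against the 39.4% of all tested genes. Voom called Mettl2, where it called 17.5% of all tested genes. The lowest was Mettl2, which encodes an RNA methyltransferase and lies 657.6 kb beyond Kansl1. It stood at 15.4 ± 0.705 TPM in WT and 10.6 ± 1.45 TPM in KO samples (SD, n = 3), and its log2 fold change was -0.50 (limma adjusted p = 0.014). Itgb3, an integrin subunit gene 139.1 kb from Kansl1, was at 52.0 ± 3.98 TPM and 60.5 ± 3.12 TPM. All its KO values were above all its WT values, as for 13.3% of all tested genes. Its log2 fold change was 0.22 (limma adjusted p = 0.138). The largest rise of the 7 was that of Mrc2, from 131 ± 33.8 to 176 ± 24.3 TPM (SD, n = 3), with overlapping groups. The log2 fold change of Mrc2 was 0.44 (limma adjusted p = 0.11).

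**Figure D2:**
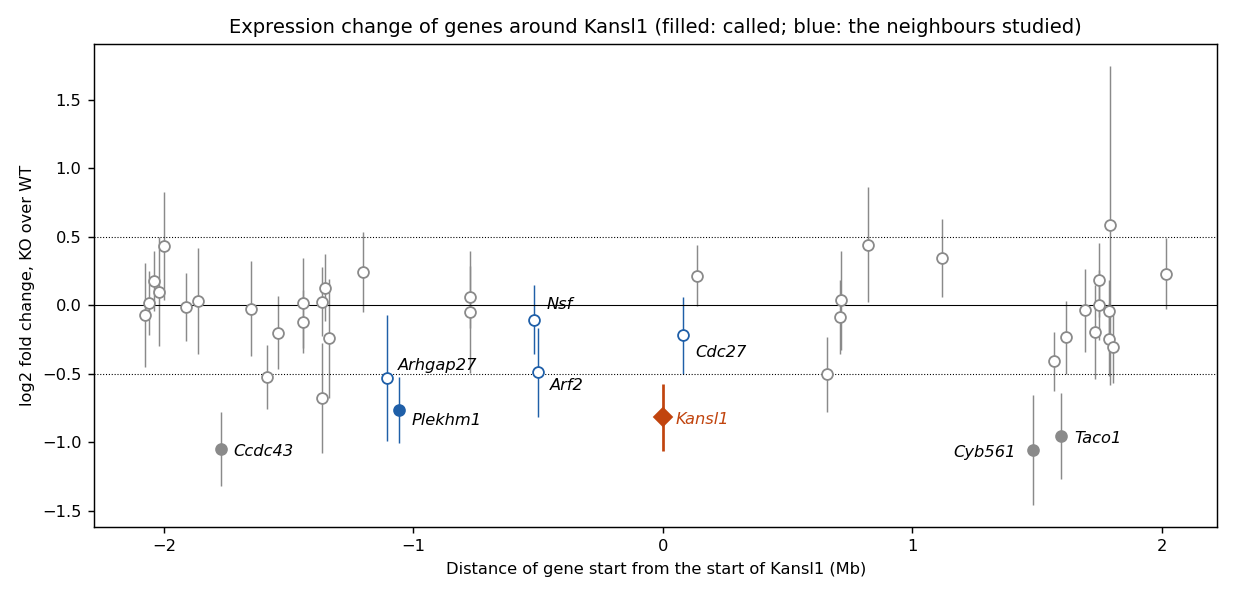
log2 fold change (KO over WT, vertical axis, with 95% limma intervals) of every tested gene within 2 Mb of Kansl1 against the distance of its start from that of Kansl1 in Mb (horizontal axis); filled points are called, blue points are the neighbours studied, and the diamond is Kansl1. Plekhm1, whose gene body comes within 920.5 kb of Kansl1 and whose start is plotted at -1056.2 kb, is called, and no neighbour plotted closer to Kansl1 is.

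The call of Plekhm1 and the direction of all 5 tested neighbours were followed through the processing settings. The log2 fold change of Plekhm1 stayed between -0.84 and -0.67, and that of Kansl1 between -0.87 and -0.72. Arhgap27 ranged most widely, from -1.03 with voom to -0.39 without WT 4. Under median-of-ratios scaling, the median over all tested genes went from -0.07 to 0.02 and Nsf to -0.0029.

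**Figure D3:**
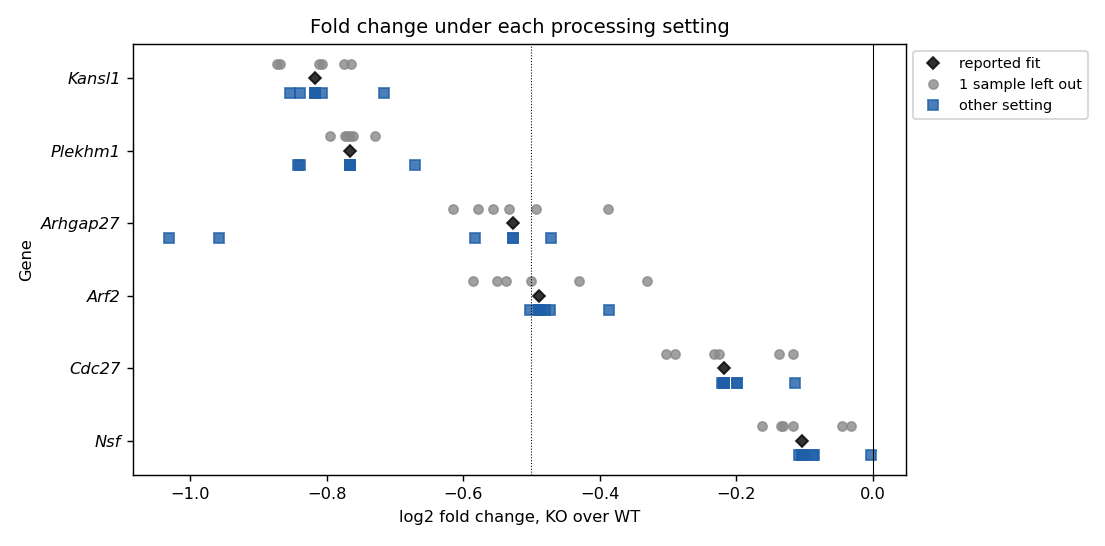
log2 fold change (KO over WT, horizontal axis) of Kansl1 and the 5 tested neighbours (rows) in the reported fit (diamonds), with 1 sample left out (circles) and under other settings (squares); the dotted line is -0.5. Kansl1 and Plekhm1 stay below -0.5 throughout, Arhgap27 and Arf2 fall on both sides of it, and Cdc27 and Nsf stay above it.

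Genes that act with 7 of the neighbours were compared from lists drawn up by role. Around Plekhm1, the list of 18 endolysosomal fusion genes had 6 lower and 1 higher genes, or 33.33% lower against 9.03% of all tested genes, with a median log2 fold change of -0.23. The lower genes included Mon1a, Mon1b and Ccz1, which encode the complex that activates RAB7, the GTPase to which PLEKHM1 binds. Mon1b went from 11.3 ± 0.730 to 3.57 ± 0.263 TPM (SD, n = 3), a log2 fold change of -1.43 (limma adjusted p = 0.00017). Mon1a went from 8.62 ± 0.332 to 3.02 ± 0.262 TPM (SD, n = 3), or -1.26 on the log2 scale (limma adjusted p = 0.000275). Ccz1 fell with a log2 fold change of -0.78. Vps39, Vps33a and Vps41, subunits of the HOPS tether that PLEKHM1 recruits, fell with log2 fold changes of -0.92, -0.88 and -0.60. The HOPS genes not called included Vps11 at -0.15, Vps16 at -0.09 and Vps18 at -0.22. Rab7 was at 0.03, and Arl8a, a lysosomal GTPase, rose from 125 ± 6.98 to 179 ± 9.13 TPM (SD, n = 3, limma adjusted p = 0.00332), a log2 fold change of 0.52. The relatives Plekhm2 and Plekhm3 were not called, at 0.10 and -0.71.

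The call of Arl8a held without WT 4 and was lost when any other sample was left out. The count for this list was 4 without KO 7, 4 without KO 3 and 3 without WT 5, in place of 7. Over all tested genes, the same fits called 1022, 777 and 758, in place of 1579. The list was written with earlier results of these data known and has no test of its own.

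Around Cdc27, 2 of 18 tested APC/C genes (11.11%, against 9.03% of all tested genes) were called lower and 0 higher, with a median log2 fold change of -0.19. They were the subunit gene Anapc10, from 7.31 ± 1.16 to 3.35 ± 0.446 TPM (SD, n = 3, log2 fold change -0.93, limma adjusted p = 0.00213), and Fbxo5, which encodes an inhibitor of the complex, from 29.8 ± 2.09 to 16.2 ± 2.34 TPM (SD, n = 3, log2 fold change -0.85, limma adjusted p = 0.00134). The coactivator gene Cdc20 had a log2 fold change of -0.52 and an adjusted p from limma of 0.00522, just short of the threshold. Leaving out WT 4, WT 5 or any 1 KO sample left 1 gene called, and testing every gene left 0. Over all genes, lower calls numbered 617 to 938 without 1 sample and 286 when every gene was tested, in place of 1337. Voom called 4 of the list lower, where it called 2149 of 14790 tested genes lower.

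Around Nsf, 1 of 18 tested genes (5.56%, against 9.03% of all tested genes) was lower, the Golgi SNARE gene Bet1 (-0.62, limma adjusted p = 0.00354), a call that was lost when any 1 sample was left out. Fits without 1 sample called 617 to 938 of all tested genes lower, in place of 1337. Under median-of-ratios scaling and with voom, 2 genes of the list were lower. Both of these fits also called more of all tested genes lower than the main fit did, voom 2149 of 14790. When every gene was tested, 0 genes of the list were called, and 341 of all genes. The SNARE gene Vti1a had a log2 fold change of -0.76 and missed the threshold (limma adjusted p = 0.0057). The genes of the NSF cofactors, Napa at 0.39, Napg at -0.39 and Napb at -0.44, were not called. Napb reached the 1 TPM filter only in WT (1.69 TPM, against 0.975 TPM in KO samples) and so had to be lower. Around Arf2, 0 of 18 tested ARF genes, exchange factors and GAPs were called by limma and 0 with voom, where 10.7% and 17.5% of all tested genes were. In that list 1 gene had an unadjusted p-value under 0.05, against 39.4% of all tested genes, and the log2 fold changes ran from -0.09 to 0.28. Arf2 itself was at -0.49.

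Around Wnt3, 2 of 24 tested Wnt pathway genes were higher (8.33%, against 1.64% of all tested genes) and 0 lower. Both encode Wnt ligands. Wnt9a rose from 6.29 ± 0.648 to 14.3 ± 0.763 TPM (SD, n = 3, log2 fold change 1.07, limma adjusted p = 0.000382). Wnt11 rose from 4.15, 7.03 and 4.84 TPM in the WT samples to 9.84, 12.3 and 10.1 TPM in the KO samples (log2 fold change 0.91, limma adjusted p = 0.00483). The list had 2 called genes without WT 5 and 1 when any other sample was left out, with a pseudocount of 0.1 TPM, with every gene tested and with no variance trend. Over all genes, higher calls numbered 84 to 252 without 1 sample, in place of 242. They numbered 221 with the 0.1 TPM pseudocount, 55 with every gene tested and 187 with no variance trend. The pathway target genes Axin2 at 0.66 and Lef1 at 0.23 were not called, nor were Porcn at -0.69 and Wnt5b at -0.64. Of the 24 genes, 6 had all KO samples above all WT samples and 5 had them all below. Around Mapt, 1 of 19 tested microtubule genes (5.26%, against 9.03% of all tested genes) was lower, Map9, from 6.34 ± 1.32 to 2.80 ± 0.0657 TPM (SD, n = 3, log2 fold change -0.94, limma adjusted p = 0.00236). The list had 1 called gene without WT 8, and 0 when any other sample was left out or when every gene was tested. Over all genes, lower calls numbered 617 to 938 without 1 sample and 286 when every gene was tested, in place of 1337. Voom called 3 genes of the list lower, against 2149 of 14790 tested genes. Map4, a relative of tau made in many cell types, was at 0.02. Of 10 genes related to Crhr1, 2 were tested, 0 were called by limma or voom, and 0 had an unadjusted p-value under 0.05.

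**Figure D4:**
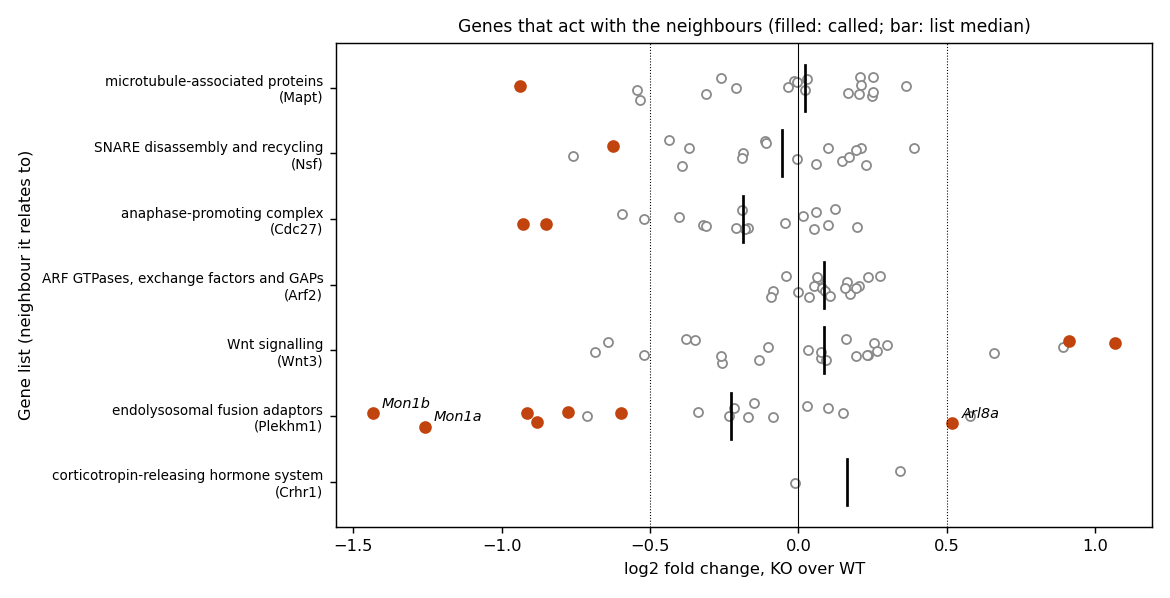
log2 fold change (KO over WT, horizontal axis) of the tested genes in 7 lists (rows, with the neighbour each relates to); filled points are called, bars are list medians, and dotted lines mark -0.5 and 0.5. The endolysosomal list holds 6 of the called lower genes, with Mon1b and Mon1a lowest, and the Wnt list holds 2 called higher genes.

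The tested genes whose levels over the 6 samples ran most like those of Plekhm1 were sought among 7747 genes averaging 10 TPM or more. The closest were Ccdc115 on chromosome 1 and Map2k5 on chromosome 9, with root mean square differences in centred log2(TPM + 1) level of 0.049 and 0.0533. Ccdc115 went from 15.5 ± 0.558 to 8.90 ± 0.572 TPM and Map2k5 from 16.6 ± 0.913 to 9.08 ± 0.0419 TPM (SD, n = 3).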

How the data were processed

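RNA was measured in 6 libraries, grouped by their titles. The authors aligned reads to mm10 with STAR (the submitters' processing notes name Bowtie 0.12.2), and the counting program is not given in the sources used here. The authors deposited TPM, with a log2 fold change and an adjusted p-value for their own comparison. Those last 2 columns were not used.

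Positions and exon lengths came from GENCODE M21, which matched 26876 of 26898 gene IDs. TPM times exon length was a whole multiple of 1 step for 100% of values of up to 2000 reads (tolerance 0.05), which gave the reads. limma 3.58.1 in R 4.3.3 was fitted to log2(TPM + 1) with a variance trend and 2 groups. It covered the 14799 genes whose WT or KO mean reached 1 TPM, with Benjamini-Hochberg adjustment. The fit was also run on simulated data, with changes larger than those reported here and the same relative spread for every gene. That run does not cover small changes or low-expressed genes. Alternatives changed the pseudocount, filter, trend, scaling, thresholds, window or samples, or used voom on reads. The members, lists and filter were chosen with earlier results of these data known, and the motifs after the promoters had been read. Genes named are Kansl1, the members, called genes within 1 Mb and the nearest expressed gene on each side (Arf2 and Cdc27). Also named are, in each list, the largest called rise and 2 largest called falls, and 2 genes most like each called member. Others named (Mettl2, Itgb3, Mrc2, further list genes) were chosen after their values were seen. The list that goes with Arhgap27 is not reported here. Promoters came from RefSeq. Annotated transcripts were searched for shared words of 50 bases.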

Additional observations from a re-analysis of the deposited data

How the results depend on the processing

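Kansl1, Plekhm1, Arf2, Cdc27 and Nsf kept a log2 fold change below 0 in every setting that gave a value. Against 1579 changed genes, testing every gene gave 341, voom 2582, an adjusted p-value under 0.05 gave 3147 and a log2 fold change past 1 gave 705, and fits without 1 sample gave 758 to 1081, with 617 (without WT 5) to 938 lower genes in place of 1337 and 84 (without KO 7) to 252 higher genes in place of 242. The higher genes numbered 473 after scaling by median of ratios. The count of changed neighbours (1, Plekhm1) was 0 when every gene was tested (limma adjusted p = 0.00564), at a mean of at least 10 TPM, which left Plekhm1 out, and at a log2 fold change past 1, and 0 to 1 without 1 sample. The count within 1 Mb (1) was 0 in those same 3 settings and in a window of 0.5 Mb, 2 with voom and at an adjusted p-value under 0.05 (Mettl2 being the second), 4 in a window of 2 Mb, and 0 to 1 without 1 sample. The limma adjusted p-value of Plekhm1 ranged from 0.000172 to 0.0069, and that of Kansl1 from 2.78e-06 to 0.00498. The endolysosomal list, at 7 changed genes, had 3 when every gene was tested, 4 at a mean of at least 10 TPM (fewer genes tested), 4 with no variance trend, 2 at a log2 fold change past 1, and 3 to 5 without 1 sample. The other causes were not tested. Removing the 2 most abundant RNAs, an alternative added after the data were seen, left all these counts within 1.5 times. No paired analysis was possible because no number in the titles occurs in both groups. Depth limits Wnt3 and Mapt, and Crhr1 gave no value.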

Other observations

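Between 1 and 2 Mb from Kansl1, 3 of 32 tested genes were called, all lower, next to 1 of 12 within 1 Mb. They lie on both sides of Kansl1 and were looked at after the window had been widened. Cyb561 reached the 1 TPM filter only in WT and so had to be lower, and it is counted in these numbers. Ccdc43, 1635.4 kb towards lower coordinates, fell from 22.4 ± 2.68 to 10.3 ± 0.587 TPM (SD, n = 3, log2 fold change -1.05, limma adjusted p = 0.000459). Cyb561, which encodes a membrane cytochrome and lies 1464.8 kb towards higher coordinates, fell from 2.74 ± 0.488 to 0.790 ± 0.0853 TPM (SD, n = 3, log2 fold change -1.05, limma adjusted p = 0.00257). Taco1, which encodes a translational activator of a mitochondrial respiratory subunit, fell from 15.2 ± 1.32 to 7.40 ± 1.26 TPM (SD, n = 3, log2 fold change -0.95, limma adjusted p = 0.00129). With these, 9.09% of the 44 tested genes within 2 Mb were called, against 10.7% of all tested genes.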
